A study of Mus musculus with 8 samples.

Results

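The serpins are described here as 48 genes on arrays of embryonic mouse skin, taken at its full thickness. Members were chosen by name: every row of the deposited value table with exactly 1 gene symbol in the platform annotation, that symbol being Serpin, a clade letter from a to i and a digit, and the brightest row for each gene, by its mean over all 8 arrays. All 48 members had 1 row each, so brightness removed none. They are 48 of 19938 genes with 1 symbol, and 24 of them were bright enough to be tested, among 15174 tested genes. A further 5 rows carry several serpin symbols (2 rows for Serpina1 genes, 3 for Serpinb9 genes) and were not used. The lower value of Serpina3n was known from earlier results when the family was chosen.

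The skin came from E17.5 embryos of a mixed C57BL6/SV129 strain. The controls are 4 RNAs from embryos labelled wildtype for PPARgamma, the nuclear receptor that governs the formation of fat cells, and they are compared with 4 RNAs from embryos labelled PpargΔ/Δ. Each RNA was hybridised to 1 single-colour Affymetrix whole-transcript array, and values are log2 levels after RMA normalization by the authors. It is not labelled what part of Pparg was deleted, in which cells, or whether embryos shared a litter. The p-values set a difference against the spread between these RNAs and treat the RNAs as independent, which could not be checked. The Pparg row itself did not fall in the labelled nulls: it was 8.94 ± 0.13 (SD, n = 4) on control arrays and 9.12 ± 0.10 (SD, n = 4) on the others, a difference of 0.18 (95% confidence interval 0.01 to 0.35; exact permutation p = 0.0857, two-sided). A row that averages probes over a transcript does not check the loss of a part of it, so the second group is called the arrays labelled Pparg null throughout. Levels of different rows are not compared with each other, since each row has its own probes.

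Serpins are a family of proteins that share 1 fold with an exposed loop. In the inhibitory members a protease cuts this loop as if it were a substrate, and the serpin then springs into another shape and holds the protease in a covalent, inactive complex. Some members have lost this action and serve as hormone carriers, collagen chaperones or signals. Clade A holds secreted plasma proteins, clade B holds proteins that mostly stay inside cells and several of which are made by keratinocytes, and the small clades C to I hold inhibitors of clotting, clot lysis and complement, and proteins of matrix and nerve.

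Of the 24 tested serpins, 1, Serpina3n, was lower in the group labelled Pparg null by limma at an adjusted p under 0.05, and 0 were higher. Over all 15174 tested genes 18 passed, 17 of them lower, which is 0.119% of the genes tested. At an unadjusted p under 0.05 the count of serpins was again 1, beside 548 of all genes, or 3.61%. Groups that do not overlap were seen for 1 serpin, Serpina3n, against a background of 2.45% of genes tested. The other 23 tested serpins differed by -0.16 to 0.23, each with an adjusted p of at least 0.9995 by limma. These p-values do not show equal levels: the widest 95% interval, that of Serpinb7, runs from -0.44 to 0.91.

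**Figure D1:**
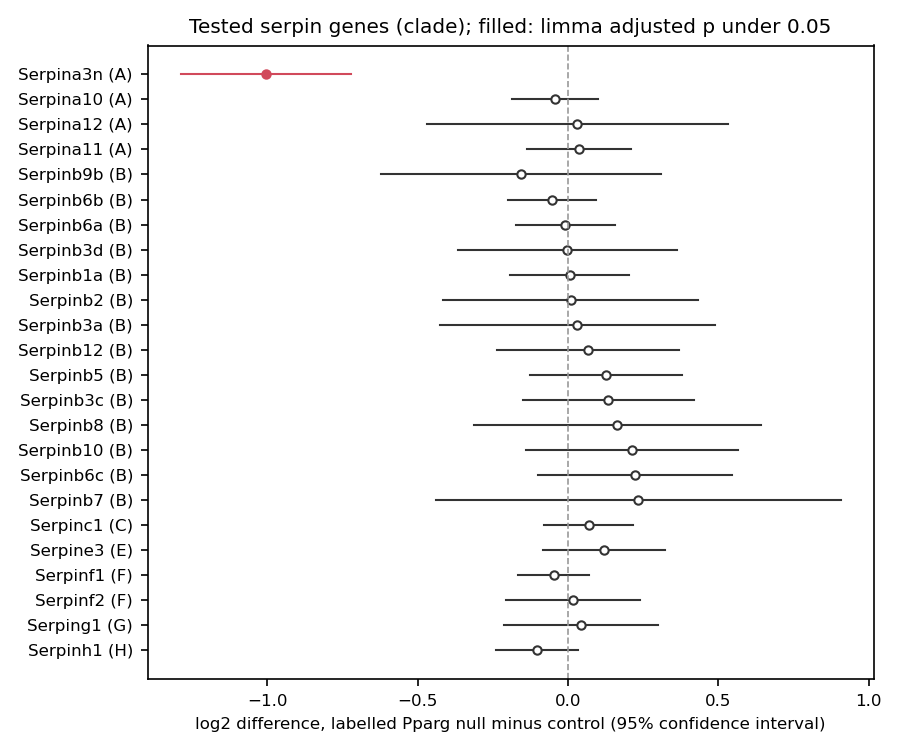
Log2 difference of each tested serpin, arrays labelled Pparg null minus control (x axis), with its 95% confidence interval from limma (4 arrays a group). Rows are sorted by clade, given in brackets, and by difference, and the filled point marks an adjusted p under 0.05. The interval of Serpina3n, from -1.29 to -0.72, is the one that lies away from 0.

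Clade A has 15 members, of which 4 were tested. Serpina3n is a secreted inhibitor of cathepsin G, leukocyte elastase and granzyme B, and the liver releases it in the acute phase response. Its values on control arrays 1 to 4 were 6.86, 7.16, 6.96 and 7.31. On arrays 1 to 4 labelled Pparg null they were 6.36, 5.94, 5.84 and 6.14. The lowest control array lay above the highest array labelled Pparg null, and the latter group came close to the 30th percentile of the arrays (5.62 to 5.67), above which a row had to lie on at least 4 of 8 arrays to be tested.

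The group means of Serpina3n were 7.07 ± 0.20 (SD, n = 4) and 6.07 ± 0.23 (SD, n = 4). The difference was -1.01 on the log2 scale (SE 0.13, 95% confidence interval -1.29 to -0.72), or 2.01-fold lower. By limma the adjusted p was 0.0211 over 15174 genes, and an exact permutation test, two-sided, gave p = 0.0286, which is the smallest value 70 assignments of 8 arrays to 4 and 4 allow. The difference kept its sign under 18 of 18 other settings and ranged from -1.10 to -0.93. The call was lost when control array 2, 3 or 4 was left out (adjusted p = 0.112, 0.0836 and 0.0976 by limma) or array 2 or 3 labelled Pparg null (0.101 and 0.0622), and it was kept without control array 1 or without array 1 or 4 labelled Pparg null. It was also lost with the replicate number as a block (adjusted p = 0.11 by limma) and with every row tested on its own (0.0891).

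The 188 bases before the first annotated base of Serpina3n are shown because it is the serpin that fell. They lie at chr12:104406458-104406645 on the plus strand of GRCm38.p6 (RefSeq). Capitals mark the match to ACANNNTGT, a loose pattern of the glucocorticoid receptor site.
Serpina3n: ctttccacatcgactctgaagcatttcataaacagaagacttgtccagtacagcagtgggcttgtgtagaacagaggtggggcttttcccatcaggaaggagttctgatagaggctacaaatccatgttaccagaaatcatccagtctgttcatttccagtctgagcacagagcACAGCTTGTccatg
In the 250 bases before the start site that the promoter table lists for Serpina3n, this was the one match among the patterns searched, 76 bases before that start. The others were AGGTCA (a single copy of the nuclear receptor site), its direct repeat with 1 base between the copies (the PPAR element), TTCNNNGAA (STAT factors), TGANTCA and TGAGTCA (AP-1), TTGCNNAA (C/EBP factors) and TATAAA (the TATA box), each on both strands, TGAGTCA being part of TGANTCA. ACANNNTGT occurs in 5.84% of the 32851 promoter entries in the table. Entries were found for 41 of 48 serpins (49 entries). AGGTCA stands in 16 of these 49, beside 14% of all entries, and the direct repeat in 0 of 49, beside 0.0335%. TATAAA stands in 14 of the 49, beside 12.4%, and the median GC content of serpin entries was 48.0% against 52.4% over all entries. No match says only that these letters are not in this window.

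Genes of other kinds also differed between the groups, and their relation to Serpina3n across arrays was not computed. Of 16 tested white adipocyte markers, 14 were lower in the group labelled Pparg null and 4 were called by limma: Cd36, a fatty acid transporter (-0.92), Fabp4, a fatty acid carrier (-1.13), Lpl, lipoprotein lipase (-1.0), and Aqp7, a glycerol channel (-0.85). The mean of the list, relative to the 8 arrays, was 0.04 to 0.28 on control arrays and -0.28 to -0.06 on the others, and the summed linear level of the 18 measured markers was 8450 to 10187 against 6574 to 8187. Adipoq and Lep, the defining hormones of fat cells, lay under the filter. Adipoq was 5.02 to 5.69 on control arrays and 4.39 to 4.90 on the others (difference -0.83, no overlap, no test), and Lep differed by -0.14. In bulk skin fewer cells of a type and less RNA per cell cannot be told apart.

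Of 7 tested hepatocyte markers, serpins left out, 6 were lower and 0 were called; 2 had an unadjusted p under 0.05, Rbp4, the carrier of retinol (-0.70, adjusted p = 0.276 by limma), and Apoa1, the main protein of high density lipoprotein (-0.35). The other 7 measured, Ttr, Apoc3, Apob, Fgb, Fgg, Ahsg and Apoh, lay under the filter. Summed over the 14 measured markers, the linear level was 1436 to 1802 on control arrays and 1162 to 1724 on the others, and the list's mean ran from -0.13 to 0.31 and from -0.28 to 0.04. Of 14 tested genes of the acute phase and STAT3 response, which includes other proteins known to be made with Serpina3n, 4 were lower, 10 higher and 0 called. At an unadjusted p under 0.05 there were 2, the ferric reductase Steap4 (-0.31) and the cytokine receptor Osmr (0.18). Of 11 tested glucocorticoid response genes 5 were lower, 6 higher and 0 called, with 0 at an unadjusted p under 0.05. Of 14 tested hair follicle markers 13 were lower and 0 called, 3 at an unadjusted p under 0.05 (Krt71, Krt27 and Krt31); their mean was -0.16 to 0.39 on control arrays and -0.45 to 0.09 on the others. Of 9 tested mast cell markers 6 were lower and 0 called, 3 at an unadjusted p under 0.05 (Mcpt4 -0.50, Tpsab1 -1.01 and Ms4a2 -0.30); the list's mean was -0.02 to 0.17 on control arrays and -0.19 to -0.01 on the others. Of 6 tested erythroid markers 5 were higher and 0 called, 3 at an unadjusted p under 0.05 (Car1 0.26, Car2 0.41 and Gata1 0.20); their mean was -0.27 to 0.03 and -0.09 to 0.32. The part of fat cells, liver-type RNA, hair follicles, mast cells or red cells in the fall of Serpina3n was not tested.

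Serpina12 (vaspin), a secreted protein known from fat tissue and from epidermis, where it inhibits the kallikrein Klk7, behaved otherwise. It was 9.45, 8.82, 9.28 and 9.28 on control arrays 1 to 4, and 8.81, 9.26, 8.97 and 9.91 on arrays 1 to 4 labelled Pparg null. The groups overlapped, and array 4 labelled Pparg null was the highest of the 8. The difference was 0.03 (95% confidence interval -0.47 to 0.53), and it was -0.19 without that array.

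The remaining tested members of clade A sat close to the filter. Serpina10, which inhibits factor Xa with its cofactor protein Z, was 5.65 to 5.89 on control arrays and 5.63 to 5.80 on the others (difference -0.04), and passed the filter on 7 arrays. Serpina11 was 5.68 to 5.92 and 5.67 to 5.95 (difference 0.04).

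The other 11 members of clade A lay under the filter and have values but no test. Just outside it stood Serpina9 (centerin, a serpin of germinal centre B cells), above the percentile on 3 arrays, with 5.48 to 5.78 on control arrays and 5.05 to 5.70 on the others. The 2 nearest neighbours of Serpina3n with a row, Serpina3a and Serpina3b, differed by -0.16 and -0.04. The genes that lie between Serpina3b and Serpina3n, from Serpina3c to Serpina3m, have no row among the members and so no values here. Serpina3a was 4.69 to 5.17 and 4.64 to 4.80, and Serpina3b was 4.90 to 5.20 and 4.83 to 5.33. The hormone carriers Serpina6 (corticosteroid-binding globulin) and Serpina7 (thyroxine-binding globulin, on the X chromosome) differed by 0.15 and 0.05, and Serpina5 (protein C inhibitor) by 0.17. Serpina1c and Serpina1d, copies of the alpha-1 antitrypsin gene, differed by 0.31 and 0.18, Serpina1f by 0.18, Serpina16 by -0.10 and the transcribed pseudogene Serpina4-ps1 by 0.06. The Serpina1 and Serpina3 genes are families of near-identical copies, so how far their probes separate them is uncertain.

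**Figure D2:**
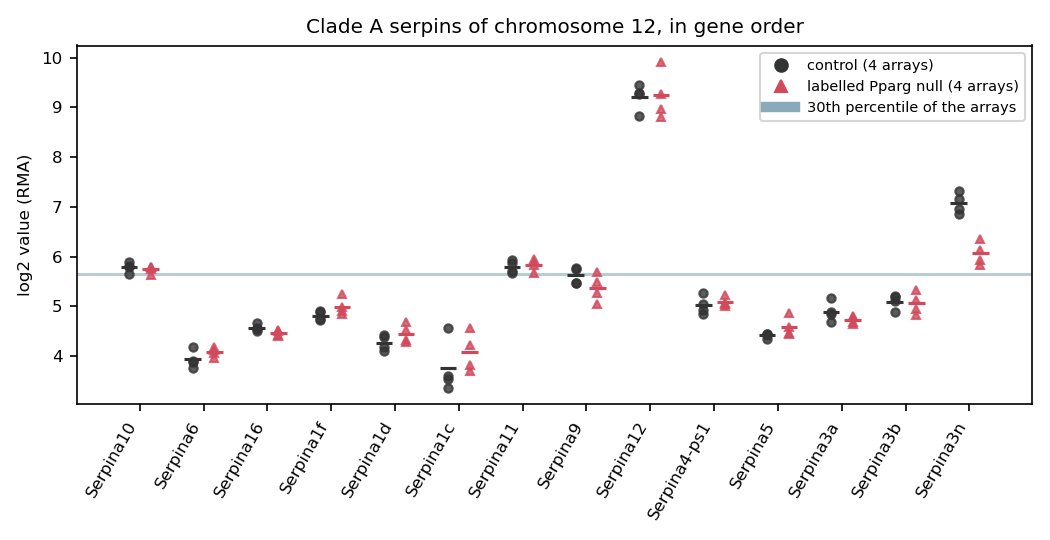
Log2 level (y axis) of the 14 clade A serpins of chromosome 12 that have a row, in their order along the chromosome (x axis), for 4 control arrays (circles) and 4 arrays labelled Pparg null (triangles), with bars at the group means and a band at the 30th percentile of the arrays. Serpina3n, at the right end, is the gene whose groups separate, with 6.86 to 7.31 against 5.84 to 6.36, while Serpina12 spreads within both groups.

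Clade B has 24 members in 2 gene clusters, 11 on chromosome 1 and 13 on chromosome 13. Of the 14 tested, 10 were higher and 4 lower in the group labelled Pparg null, 0 were called by limma, and 0 had an unadjusted p under 0.05. The median difference was 0.05, beside -0.00058 over all genes tested. On chromosome 1, 8 of 9 tested members were higher, with a median of 0.13. This rested on array 4 labelled Pparg null: without it 4 of 9 were higher, with a median of -0.00036. That array stood apart from the others on the first principal component of all genes (40.8% of the variance), at -21.7, with control array 1 next at -8.62 and the rest between -3.12 and 9.02.

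Of the 9 tested members of chromosome 1, 6 had array 4 labelled Pparg null as the highest of the 8, and they are described first. Serpinb7 (megsin), mutated in a human palmoplantar keratosis, was 8.56, 7.91, 8.63 and 8.59 on control arrays 1 to 4. It was 8.21, 8.52, 8.26 and 9.65 on arrays 1 to 4 labelled Pparg null. Control array 2 was the lowest and array 4 labelled Pparg null the highest. The difference was 0.23 (95% confidence interval -0.44 to 0.91), and -0.10 without that highest array.

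Serpinb2 is the plasminogen activator inhibitor of keratinocytes and macrophages, which inhibits urokinase. It was 9.58, 9.13, 9.51 and 9.53 on control arrays and 8.98, 9.46, 9.35 and 9.996 on the others. The same array 4 labelled Pparg null was highest, and array 1 of that group was lowest. The groups differed by 0.0088 (95% confidence interval -0.42 to 0.43).

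Serpinb8, which inhibits furin and is mutated in a human peeling skin disorder, was 9.61, 9.11, 9.35 and 9.34 on control arrays and 9.15, 9.64, 9.12 and 10.16 on the others. Its difference was 0.16 (95% confidence interval -0.31 to 0.64), and it turned to -0.05 without array 4 labelled Pparg null. Serpinb10 (bomapin), an inhibitor described in bone marrow cells, was 9.48, 9.31, 9.59 and 9.60 against 9.40, 9.77, 9.47 and 10.19. Its difference of 0.21 (95% confidence interval -0.14 to 0.56) was 0.05 without that array. In both genes the groups overlapped, and array 4 labelled Pparg null was the highest of the 8.

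Serpinb5 (maspin) does not inhibit proteases and is known as a suppressor of tumour cell invasion that epithelia make. It was 11.34, 11.21, 11.58 and 11.51 on control arrays and 11.34, 11.50, 11.47 and 11.83 on the others (difference 0.13, 95% confidence interval -0.13 to 0.38). Serpinb12, an inhibitor of trypsin-like proteases, was 10.84, 10.71, 11.16 and 10.99 against 10.72, 10.99, 10.91 and 11.35 (difference 0.07, 95% confidence interval -0.24 to 0.37, and -0.05 without array 4 labelled Pparg null). Control array 2 was the lowest of the 8 for both.

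The Serpinb3 genes are the mouse counterparts of the squamous cell carcinoma antigens, which inhibit cysteine proteases such as cathepsin L and serine proteases such as cathepsin G. Serpinb3c was 9.69, 9.48, 10.10 and 9.76 on control arrays and 9.70, 9.98, 9.82 and 10.07 on the others (difference 0.13, 95% confidence interval -0.15 to 0.42). Serpinb3a ran from 7.90 to 8.82 over control arrays and from 8.10 to 8.54 over the others, with control arrays 1 and 2 the lowest of all, and differed by 0.03. Serpinb3d was 5.88 to 6.69 and 6.07 to 6.40 (difference -0.0021). These 3 are close copies, and the highest array was a control for each of them, in contrast to the members described before. The other 2 members of chromosome 1 were under the filter. Serpinb11 passed the percentile on 2 arrays, control array 1 (6.19) and array 4 labelled Pparg null (6.66), with the other 6 at 5.0 to 5.31. Serpinb13, an inhibitor of cathepsin L known from stratified epithelium, was 3.74 to 4.54 over the 8 arrays.

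**Figure D3:**
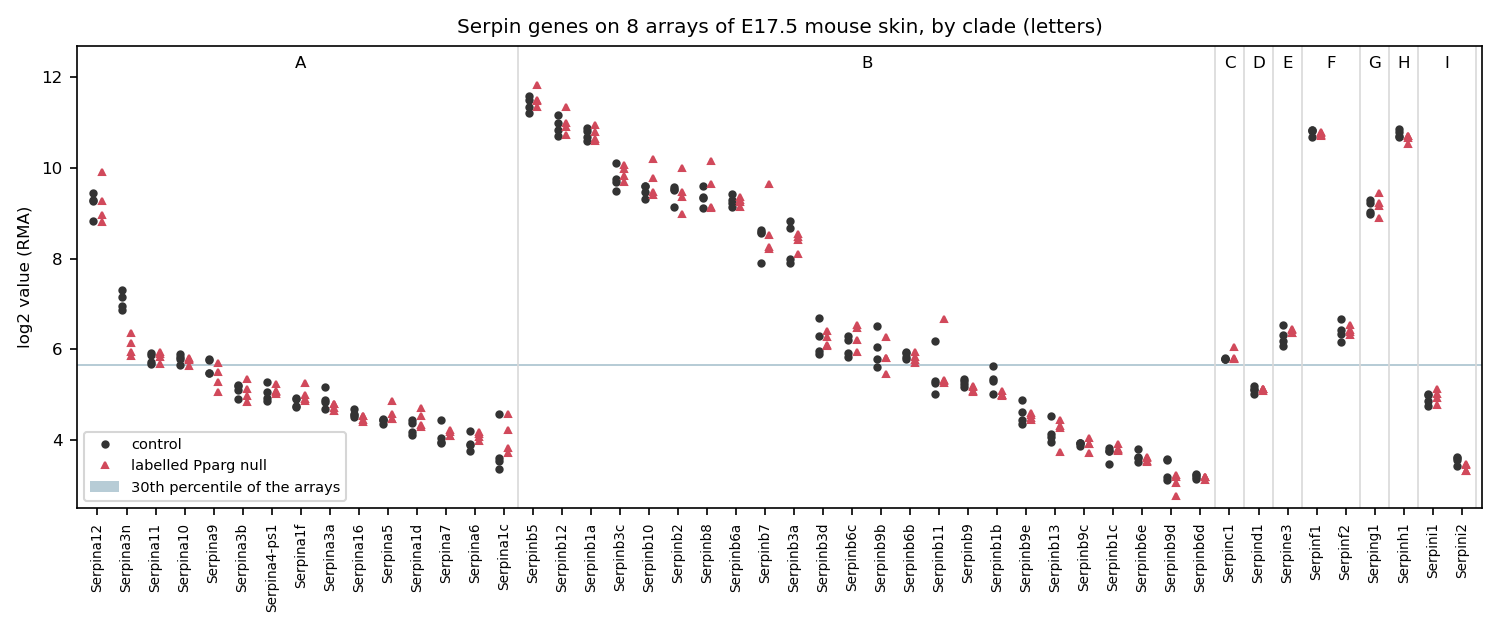
Log2 level (y axis) of all 48 serpins by clade (x axis, letters at the top), with 4 control arrays as circles, 4 arrays labelled Pparg null as triangles, and a band at the 30th percentile of the arrays. Genes are sorted within a clade by their mean for display only, since rows have different probes. Serpina3n separates the groups, while in Serpinb7, Serpinb8, Serpinb10 and Serpina12 a single array labelled Pparg null (9.65, 10.16, 10.19 and 9.91) stands above the rest.

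On chromosome 13, 5 of 13 members were tested, 2 higher and 3 lower, with a median difference of -0.0092. Serpinb1a, which inhibits neutrophil elastase, was 10.59 to 10.87 on control arrays and 10.60 to 10.95 on the others (difference 0.0060, 95% confidence interval -0.19 to 0.20). Serpinb6a, an inhibitor of cathepsin G inside cells, was 9.13 to 9.42 and 9.14 to 9.37 (95% confidence interval of the difference -0.17 to 0.16). Both intervals are narrower than those of the chromosome 1 members Serpinb7, Serpinb8 and Serpinb2.

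Serpinb6c was 5.93, 5.83, 6.28 and 6.20 on control arrays and 5.93, 6.46, 6.21 and 6.53 on the others (difference 0.22, 95% confidence interval -0.10 to 0.54). Serpinb6b, at 5.77 to 5.95 and 5.70 to 5.95, differed by -0.05. Serpinb9b belongs to the mouse copies of the granzyme B inhibitor and was just inside the filter, on 6 arrays. Its values were 6.52, 5.78, 5.60 and 6.05 on control arrays and 5.81, 5.81, 5.45 and 6.26 on the others (difference -0.16, 95% confidence interval -0.62 to 0.31). The difference was 0.02 without control array 1, the highest of the 8.

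The 8 members of chromosome 13 under the filter were Serpinb1b, Serpinb1c, Serpinb6d, Serpinb6e, Serpinb9, Serpinb9c, Serpinb9d and Serpinb9e. Serpinb1b stood just outside, above the percentile on 1 array, with 5.02 to 5.64 on control arrays and 4.98 to 5.08 on the others (difference -0.32). Serpinb9d differed by -0.30 and Serpinb9, the granzyme B inhibitor itself, by -0.14, at 5.16 to 5.33 and 5.05 to 5.18. The other 5 differed by -0.07 to 0.11. These rows too stand for close copies, and the part of cross-hybridisation was not tested.

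The epidermal serpins were set beside the suprabasal epidermis, the layers above the basal cells that form the barrier, through the mean of 12 tested markers (including Krt77, Krtdap, Sbsn, Ivl and Flg2), relative to the 8 arrays. The relation was examined after the data had been seen. The list mean was 0.11, -0.25, -0.03 and 0.06 on control arrays 1 to 4 and -0.21, -0.01, -0.14 and 0.47 on arrays 1 to 4 labelled Pparg null. Of its genes 6 were lower and 6 higher between groups, 0 were called by limma, and 0 had an unadjusted p under 0.05. The list varied between arrays within each group, with array 4 labelled Pparg null highest and control array 2 lowest. The keratin Krt77 weighed most in it, at 12.49 on array 4 labelled Pparg null, 10.67 on control array 1 and 8.44 to 9.52 on the others, and gave 0.25 of the 0.47 and 0.09 of the 0.11 on those arrays. Flg2 was not raised on array 4 labelled Pparg null (10.83). Krt1 (13.19), Krt10 (13.15), Lor (13.06) and Krtdap (11.99) were not highest on that array either. Their highest values on other arrays were 13.20, 13.20, 13.07 and 12.02. The other markers, Krt77, Sbsn, Ivl, Calml3, Cnfn, Lce1a1 and Tgm3, were highest on array 4 labelled Pparg null. Without Krt77 the mean of the other 11 markers was 0.01, -0.18, 0.06 and 0.07 on control arrays and -0.16, 0.02, -0.07 and 0.25 on the others, with the same highest and lowest array.

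Across the 8 arrays 24 relations were computed, 1 for each tested serpin. Adjustment over these 24 relations does not cover the choice to examine this list after the data had been seen. Serpina12 gave a Pearson r of 0.98 (exact permutation p = 0.00015, adjusted over the 24 relations 0.00357) and a Spearman rho of 0.95 (exact permutation p = 0.00114, adjusted 0.0137). Serpinb2 gave r = 0.95 (exact permutation p = 0.00030, adjusted 0.00357) and rho = 0.95 (exact permutation p = 0.00114, adjusted 0.0137). Without the 2 arrays farthest from the median of the list, array 4 labelled Pparg null and control array 2, their r was 0.96 and 0.90 over 6 arrays.

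For 4 more serpins the adjusted permutation p of r was under 0.05 while that of rho was not. Serpinb7 gave r = 0.97 and rho = 0.83 (exact permutation p = 0.00060 and 0.0154, adjusted 0.00476 and 0.0615), and r = 0.87 without the same 2 arrays. Serpinb8 gave r = 0.94 and rho = 0.86 (exact permutation p = 0.00156 and 0.0107, adjusted 0.00937 and 0.0615), and 0.77 without them. Serpinb10 gave r = 0.90 and rho = 0.83 (exact permutation p = 0.00749 and 0.0154, adjusted 0.036 and 0.0615), but 0.43 without them. Serpinb12 gave r = 0.82 and rho = 0.69 (exact permutation p = 0.0122 and 0.0694, adjusted 0.0489 and 0.185), but 0.37 without them. With the mean of all 12 markers, the relations of Serpinb10 and Serpinb12 thus rest on those 2 arrays. With Krt77 out of the list, and array 4 labelled Pparg null alone left out, their r was 0.79 and 0.86. In that setting r was 0.95 for Serpinb7 and 0.68 for Serpinb8.

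Serpinb5 gave r = 0.82 and rho = 0.57 (exact permutation p = 0.0171 and 0.151, adjusted 0.0561 and 0.342), and 0.14 without the 2 arrays. Serpinc1 gave r = 0.83 and rho = 0.16 (exact permutation p = 0.101 and 0.702, adjusted 0.202 and 0.887), but -0.61 without the 2 arrays. Without array 4 labelled Pparg null alone, the r of Serpinc1 was -0.32. The lowest values of r were -0.78 for Serping1 and -0.73 for Serpinb1a (exact permutation p = 0.0187 and 0.0281, adjusted 0.0561 and 0.0749). Their rho was -0.74 and -0.83 (exact permutation p = 0.0458 and 0.0154, adjusted 0.138 and 0.0615). Serpina3n gave -0.14 (exact permutation p = 0.773). With 4 arrays a group no relation was computed within groups.

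An r of 0.8 or more was reached by 8 of 24 serpins, beside 7.20% of all genes tested, and by 6 of the 9 tested clade B members of chromosome 1. Without array 4 labelled Pparg null it was reached by 4 of 24 serpins, 3 of the 9 on chromosome 1 among them, beside 3.37% of all genes. With the list mean taken without Krt77, over the 8 arrays, it was reached by 7 of 24 serpins and by 6 of the 9 on chromosome 1, beside 6.33% of all genes. These shares describe the arrays, since genes are not independent. In a limma fit with the list mean beside the group, 5 of 24 serpins rose with the list at an adjusted p under 0.05, against 3.84% of all genes tested: Serpina12, Serpinb2, Serpinb7, Serpinb8 and Serpinb10. Without array 4 labelled Pparg null that fit called 0 serpins and 0 of all genes, with 6 serpins and 580 of all genes at an unadjusted p under 0.05. With the list mean taken without Krt77 and all 8 arrays, the fit called 7 serpins, the 5 named and Serpinb5 and Serpinb12, against 2.16% of all genes. With the mean of all 12 markers in the fit, the difference of Serpina3n between groups was -1.0 (adjusted p = 0.0267 by limma).

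**Figure D4:**
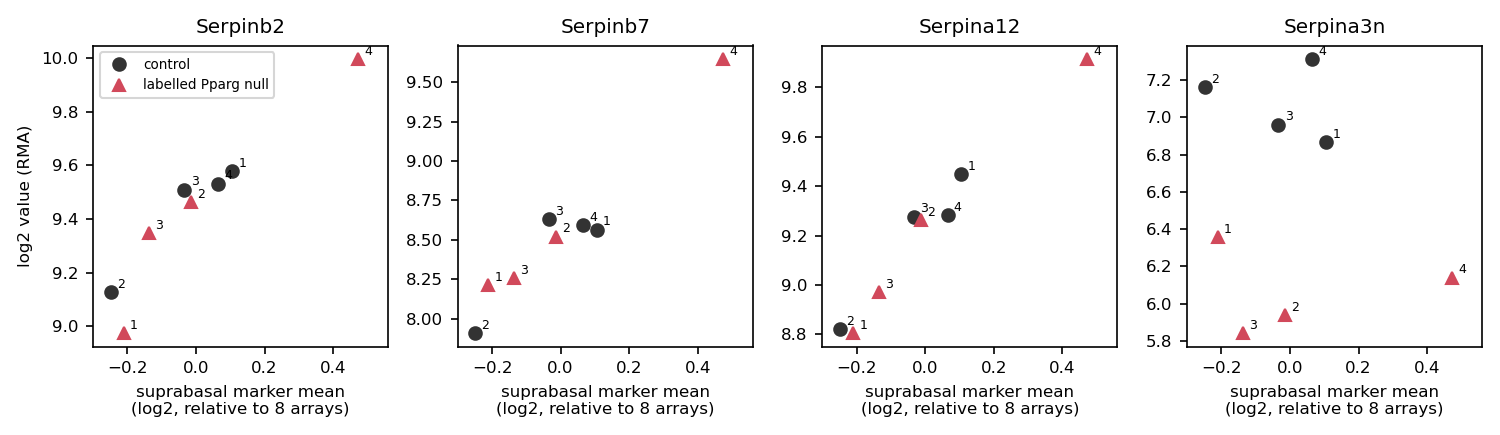
Log2 level (y axes) of Serpinb2, Serpinb7, Serpina12 and Serpina3n against the mean of 12 suprabasal markers relative to the 8 arrays (x axes), with the replicate number beside each point, circles for control and triangles for arrays labelled Pparg null. In the first 3 panels both groups lie along 1 band (r = 0.95, 0.97 and 0.98), and in the last the control arrays all lie above the others (r = -0.14).

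**Figure D5:**
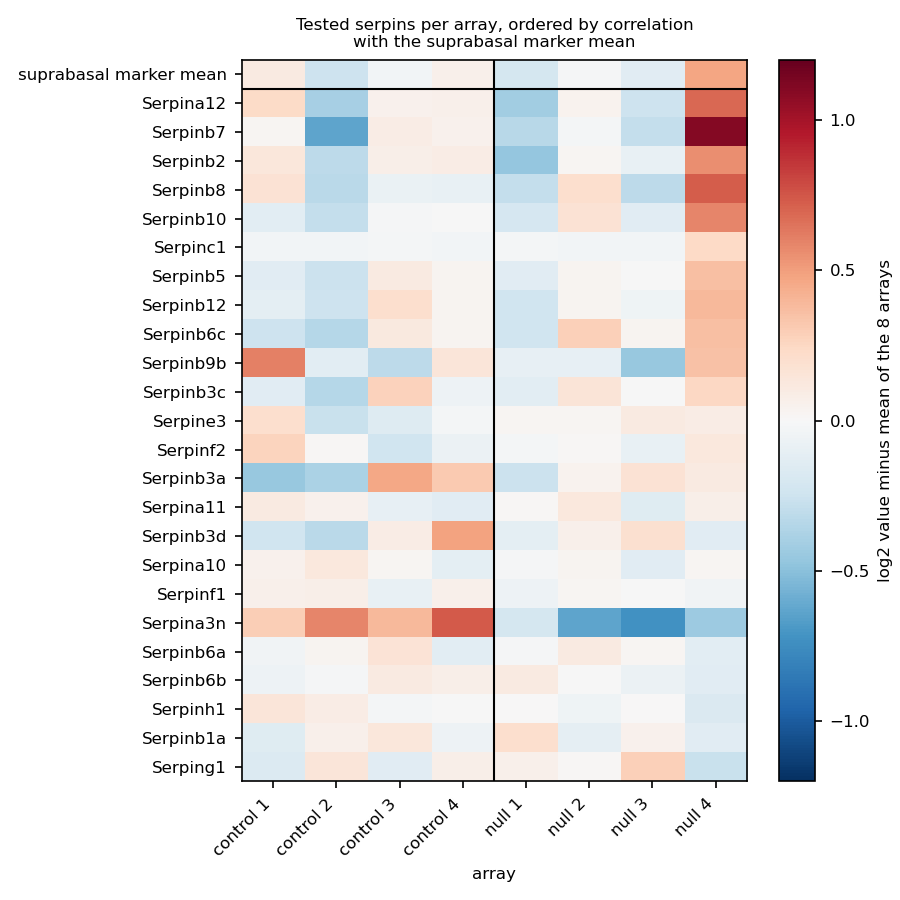
Log2 value of each tested serpin minus its mean over the 8 arrays (colour), by array (x axis), with serpins ordered by their Pearson r with the suprabasal marker mean, which is the top row. Array 4 labelled Pparg null is high for Serpina12, Serpinb7, Serpinb2, Serpinb8 and Serpinb10 and low for Serping1, while the row of Serpina3n is high on 4 control arrays and low on the other 4.

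Promoter letters are shown for 6 of the 9 tested members of the chromosome 1 cluster, those that hold TGANTCA within 250 bases before a listed start. These are also the 6 with array 4 labelled Pparg null highest and an r of at least 0.8. Without that array Serpinb2, Serpinb7 and Serpinb8 still met this bound, while Serpinb5, Serpinb10 and Serpinb12 were at 0.50, 0.63 and 0.56. With Krt77 also out of the list, r was 0.92 for Serpinb2, 0.95 for Serpinb7 and 0.68 for Serpinb8. It was then 0.81 for Serpinb5, 0.79 for Serpinb10 and 0.86 for Serpinb12, so which genes met the bound depended on Krt77. The 3 Serpinb3 genes hold no match, and neither do the 12 other tested serpins with an entry, among them Serpina12 (r = 0.98) and Serpinc1 (r = 0.83). For Serpinc1 the r was -0.32 without array 4 labelled Pparg null. TGANTCA stands in 6.75% of all 32851 entries and in 10 of 49 serpin entries. With G or C in the middle, the form best known for AP-1, a factor of keratinocyte differentiation and stress, TGAGTCA stands in 4.46% of all entries, in 4 of 49 serpin entries and, among the 6 genes, in Serpinb7 and Serpinb8. This split was noticed among several patterns, on members that are neighbours and copies of each other, and it is a description. Each line gives 27 bases of the plus strand of chromosome 1, GRCm38.p6 (RefSeq), with the match in capitals.
Serpinb2: agtaaaatgtTGAATCAtacaaagaat
Serpinb5: aagttgggccTGAATCAtgtcttccaa
Serpinb7: agggagtgtcTGAGTCAgaggctttat
Serpinb8: gtgggaagtgTGAGTCAcagagtgttc
Serpinb10: cttgtgaaagTGAATCAagggtggggc
Serpinb12: aaaaacaatcTGATTCAcgatcattat
The windows lie at chr1:107511319-107511345 (Serpinb2), chr1:106861025-106861051 (Serpinb5), chr1:107422634-107422660 (Serpinb7), chr1:107589973-107589999 (Serpinb8), chr1:107528939-107528965 (Serpinb10) and chr1:106934394-106934420 (Serpinb12). The match of Serpinb8 lies 23 bases before the listed start, those of Serpinb7 and Serpinb12 45, that of Serpinb10 54, that of Serpinb2 94 (or 181 from its other start) and that of Serpinb5 140.

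The small clades hold 9 members, of which 6 were tested and 0 called, with 0 at an unadjusted p under 0.05. Serpinh1 is the chaperone of collagen folding in the endoplasmic reticulum and does not inhibit proteases. It was 10.85, 10.79, 10.68 and 10.70 on control arrays and 10.71, 10.65, 10.71 and 10.53 on the others. The groups overlapped, and the difference was -0.10 (95% confidence interval -0.24 to 0.03; adjusted p = 0.9995 by limma). Of 12 tested collagens that are its clients 11 were lower, beside 50.3% of all genes tested. Of the collagens 0 were called and 0 had an unadjusted p under 0.05, with a median of -0.04. Col1a1 differed by -0.09 and Col5a2 by -0.15. The mean of the collagen list was -0.04 to 0.09 on control arrays. On arrays 1 to 4 labelled Pparg null it was 0.06, -0.02, 0.03 and -0.16. Without control array 1 and array 4 labelled Pparg null the difference of Serpinh1 was -0.03.

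Serpinf1 (pigment epithelium-derived factor), a secreted, non-inhibitory serpin that restrains the growth of vessels, was 10.82, 10.84, 10.68 and 10.83 on control arrays and 10.70, 10.79, 10.76 and 10.73 on the others (difference -0.05, 95% confidence interval -0.16 to 0.07). Its neighbour Serpinf2, the plasmin inhibitor of blood, was 6.16 to 6.67 and 6.32 to 6.53 (difference 0.02). Serping1 inhibits the C1 proteases of complement and the kallikrein of plasma. It was 8.99, 9.30, 9.02 and 9.22 against 9.22, 9.17, 9.44 and 8.89 (difference 0.04, 95% confidence interval -0.21 to 0.30). Here array 4 labelled Pparg null was the lowest of the 8, as it was for Serpinh1 and Serpinb6b. This is the reverse of its place in Serpina12 and in the 6 members of chromosome 1 described first.

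Serpine3, a little studied relative of the plasminogen activator inhibitors, was 6.54, 6.07, 6.19 and 6.31 on control arrays and 6.36, 6.37, 6.44 and 6.43 on the others (difference 0.12, 95% confidence interval -0.08 to 0.32). Serpinc1 (antithrombin), an inhibitor of thrombin and factor Xa from liver, was 5.78 to 5.79 on control arrays and 5.78 to 6.06 on the others, where array 4 set the upper value (difference 0.07, 95% confidence interval -0.08 to 0.22). Under the filter lay Serpind1 (heparin cofactor), at 5.01 to 5.18 on the 8 arrays, the neuronal inhibitor Serpini1, at 4.75 to 5.11, and Serpini2, a serpin of the pancreas, at 3.31 to 3.62.

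The partners of the serpins were read the same way. Of 26 tested target proteases 14 were lower, 12 higher and 0 called by limma; 1 had an unadjusted p under 0.05, Plat, the tissue plasminogen activator (-0.18, adjusted p = 0.9995 by limma), and Plau, urokinase, differed by -0.17. Klk14, an epidermal kallikrein, differed by -0.09 and Hgfac, the activator of hepatocyte growth factor, by -0.11. Of 12 tested clearance receptors and cofactors 5 were lower, 7 higher and 0 called; 1 had an unadjusted p under 0.05, the urokinase receptor Plaur (0.17). Of 21 tested genes from other inhibitor families 9 were lower, 12 higher and 0 called, with 0 at an unadjusted p under 0.05; the tissue factor inhibitor Tfpi differed by 0.19 and the metalloprotease inhibitor Timp4 by -0.18.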

How the data were processed

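The authors deposited log2 values per transcript cluster, which the submitters' processing notes tie to RMA and Affymetrix Expression Console; versions, annotation build and filters: not given in the sources used here. RMA makes all arrays share nearly 1 distribution (medians 6.93 to 6.96), so a shift of all genes together cannot be seen; the number of arrays limits the precision. Symbols were updated by gene ID through a RefSeq table of GRCm38.p6, used also for gene order. Of 35556 rows, 21789 had 1 symbol, 1621 several and 12146 none.

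Rows above the 30th percentile of their array on at least 4 of 8 arrays were tested, the brightest row for a gene, with limma 3.58.1 (R 4.3.3), two-sided, no covariate, Benjamini-Hochberg adjustment and a threshold of 0.05. Permutation tests of group differences used R, and those of correlations used Python 3.11.15, with ranks from scipy 1.17.1. The limma step was tested on simulated data. Members and lists were chosen with earlier results of these data known. The members described most fully passed the threshold, were among the 12 largest differences, were brightest of their clade or have well known roles. From each other list, up to 4 genes with the smallest p were named, beside defining markers under the filter. Krt77 and the remaining suprabasal markers were named after their values were seen. Alternatives covered the filter, scaling, prior, array weights, replicate block, handling of several rows, threshold and arrays left out; a suprabasal covariate, and the list without Krt77, were added after the data were seen.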

Additional observations from a re-analysis of the deposited data

Results flagged for a closer look

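In 4 of 30 groups of 4 arrays examined, 1 array stood apart from the other 3 by more than Dixon's critical value for the gap over the range; chance gives about 1 in 20, or 1.5 groups. For Serpinb7, control array 2 was at 7.91 with the others at 8.56 to 8.63 (ratio 0.907). For Serpinc1, control array 3 was at 5.79 with the others at 5.78 (ratio 1, which a tie of the other 3 gives whatever the remaining value is), and array 4 labelled Pparg null was at 6.06 with the others at 5.78 to 5.80 (ratio 0.952). For Serpinf1, control array 3 was at 10.68 with the others at 10.82 to 10.84 (ratio 0.935).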

How the results depend on the processing

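The count of 18 genes past the threshold became 1 with a replicate block, 1 with every cluster tested on its own, 3 at an adjusted p of 0.01, and 3 to 15 with 1 array left out. The count of 1 serpin became 0 above the 50th percentile, where Serpina3n was not tested, 0 with the replicate block (adjusted p of Serpina3n 0.11 by limma), 0 with every cluster on its own (0.0891), 0 at an adjusted p of 0.01, and 0 to 1 with 1 array left out. Whether the replicate numbers are a pairing is not labelled. Same-numbered arrays correlated at -0.31, 0.20, 0.05 and -0.03 in their deviations from the group means, which does not decide it. Counts for the other settings, the suprabasal covariate chosen after seeing the data included, stayed within 1.5 times. Of 280 values of the 15 named serpins under other settings, 0 changed a called sign, 7 lost a call (all Serpina3n) and 12 moved beyond the spread between replicates; 9 of 15 kept their sign throughout. Centring each array turned the share of all genes that were higher from 49.7% to 42.8% and that of tested serpins from 16 to 14 of 24; without array 4 labelled Pparg null 11 of 24 were higher. Members under the filter lie near background, where differences are compressed.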
